A study of Mus musculus with 8 samples.

Results

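The protein genes of the cytosolic ribosome are described here in cultured mouse oligodendrocyte progenitors kept in high or low glucose. Members were the protein-coding genes whose mouse symbol begins with Rpl or Rps followed by a number, together with Rpsa, Rplp0, Rplp1 and Rplp2, while the Rps6k kinases, pseudogenes and Gm genes were left out. This gave 86 of the 56980 gene IDs in the deposited table. Of these, 77 encode canonical subunits, 31 of the small and 46 of the large subunit. The other 9 are 8 paralogues (Rpl3l, Rpl7l1, Rpl10l, Rpl22l1, Rpl36al, Rpl39l, Rps27l and Rps27rt) and Rps19bp1, which encodes a protein that binds Rps19. Fau, which encodes a fusion protein that releases Rps30, does not carry a matching name and was followed separately.

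RNA was sequenced from PDGFRα-positive progenitors, the mitotic cells that give rise to myelinating oligodendrocytes, panned from the cortex of wild-type C57BL/6 pups of either sex at postnatal day 6 to 8. The high glucose group (HG) was held in 25 mM glucose. In the low glucose group (LG) repeated medium changes brought glucose to 12.5 mM by day 1, to 5 mM a day later and to 2.5 mM by day 3, with harvest of all cultures on day 5. Before the experiment bFGF (20 ng/mL) was also present in all cultures and was washed out, while PDGF-AA stayed at 10 ng/mL to the end, so both groups are progenitors under a mitogen. Each group holds 4 libraries numbered 1 to 4, and numbers 1 and 2 carry the same preparation code in both groups, so the 4 pairs come from 3 preparation codes. The labels also call the preparations independent, which the shared code goes against, so n = 4 counts libraries and the p-values measure the spread between them.

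Ribosomal protein genes are among the most strongly transcribed genes of a growing cell, and their products are made in near-equal amounts for assembly into the small and large subunits. Their mRNAs start with a cytosine followed by an unbroken run of pyrimidines, the 5′ terminal oligopyrimidine (TOP) motif. Through this motif the kinase complex mTORC1 and the RNA-binding protein Larp1 are known to control translation and storage of these mRNAs when nutrients change. Such control acts on translation as well as on mRNA amount, and the present data measure only the amount of mRNA.

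The TOP stretch is the sequence feature that links these genes to nutrient supply, and it could be read for the members matched by symbol to RefSeq promoter windows of build GRCm38.p6. Of the 86 members 66 matched. The lines below show 26 bases of 8 members, from 8 bases before the annotated start to 18 after it, with the TOP stretch in capitals where one was found within 5 bases of the start. The first 5 carry a stretch, and Rps27 and Rps27rt are a near-identical pair whose start sequences differ in the length of the stretch. Rplp0 is shown as a member with no stretch at its annotated start.
Rpl28 (large subunit, chr7:4792957-4792982, plus strand): tcgtgtCTCTCTTTCCgtctccggcc
Rps6 (small subunit, chr4:86857350-86857375, minus strand): agtcgggCCTCTTTTTCgtgacgcct
Rplp2 (large subunit, chr7:141447643-141447668, plus strand): gcgtCTTCCTTTCgccgccggacgcc
Rpl39 (large subunit, chrX:37085205-37085230, minus strand): tccgCCTCTagcgacttcttctaatc
Rpl38 (large subunit, chr11:114668572-114668597, plus strand): gcctcgttCTTTCCCCgttctcttcg
Rps27 (small subunit, chr3:90213631-90213656, minus strand): ctttcgCTCCTTTCCggcggtgacga
Rps27rt (paralogue, chr9:114982722-114982747, minus strand): atcccttgCTTTCCggcggtgacgac
Rplp0 (large subunit, chr5:115559459-115559484, plus strand): ggtttcgaggaccgcctggttctcct

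The pattern searched was a C at the annotated start or within 5 bases of it, followed by at least 4 pyrimidines on the sense strand. It was present in 27 of the 57 matched canonical genes (47.4%), and in 21.2% of the 27025 genes with a window. Its share was alike in the subunits, 47.8% of the 23 matched genes of the small and 47.1% of the 34 of the large subunit. The letters CTTTCC, which can lie inside a TOP stretch, stood on the sense strand of the 300-base window in 40.4% of the matched canonical genes against 16.0% of all genes, and on either strand in 50.9% against 29.3%. The letters CCGGAAG, searched on both strands, were found in 42.1% against 9.93% of all genes. CTTTCC was less evenly spread than the start pattern, with 52.9% of large and 21.7% of small subunit genes on the sense strand. These are matches of letters in a window around 1 annotated start or a few, and a start that lies some bases off hides the stretch.

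In these cells the canonical members made up several percent of all counts and differed widely in level among themselves. Levels are given as CPM per kb of exon, where CPM is the count scaled to a common library size with TMM factors and exon length is the union of annotated exons. The median of the 77 canonical members was 299 CPM per kb over all 8 libraries, with quartiles of 176 and 401. The highest was Rplp1, a protein of the large subunit stalk that recruits elongation factors, with 1086 ± 185 CPM per kb in HG and 1214 ± 31.9 in LG (SD, n = 4 each). Rps3a1, a small subunit protein, followed with 995 ± 114 in HG and 1022 ± 153 in LG. Rplp0, the base of the same stalk, stood at 832 ± 124 in HG and 936 ± 63.1 in LG, Rps15 at 783 ± 91.2 and 858 ± 132, Rps2 at 694 ± 101 and 775 ± 25.4, and Rpl7a at 582 ± 69.4 and 623 ± 82.1. Rplp0, Rps15 and Rps2 each differed from the next of the 3 by less than the larger of their SDs in both groups. Rps2 exceeded Rpl7a by more than either SD in both groups, Rps3a1 exceeded Rplp0 by more than either SD in HG but not in LG, and Rplp1 exceeded Rps3a1 by more than either SD in LG but not in HG. The order depends on the length used: by the principal transcript of each gene Rps2 stood first with 1228 CPM per kb, and Rps3a1 eighth with 1008.

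At the other end, Rpl3l, known from muscle, Rpl39l, known from testis, and Rpl10l, a retrogene known from testis, were close to absent. Rpl10l had 0 counts in every library, Rpl39l 10 counts and Rpl3l 13 counts over all 8 libraries, and these 3 members were too low to test. The other 83 passed the filter on low counts. Among the canonical genes Rps10, a small subunit protein, was far below the rest with 1.55 ± 0.299 CPM per kb in HG and 1.54 ± 0.23 in LG. Rpl24, of the large subunit, had 4.60 ± 1.15 and 4.32 ± 1.02, and Rpl13a, of the large subunit, 28.0 ± 5.12 and 28.2 ± 4.01. All 3 lie beside a gene model of the same strand that shares at least 200 exonic bases with them and is itself listed at 0 counts, as does the paralogue Rpl36al at 0.300 ± 0.0988 and 0.287 ± 0.0306. The shared stretch covers 47.0% of the exonic bases of Rpl24, 29.4% of Rpl13a, 24.5% of Rpl36al and 20.6% of Rps10. Fau, outside the naming rule, had 256 ± 29.9 CPM in HG and 281 ± 32.7 in LG, a log2 fold change of 0.13 with SE 0.11. The sources used here do not say how reads in shared exons were counted. The part of that, or of the copies described below, in these low levels was not tested.

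**Figure D1:**
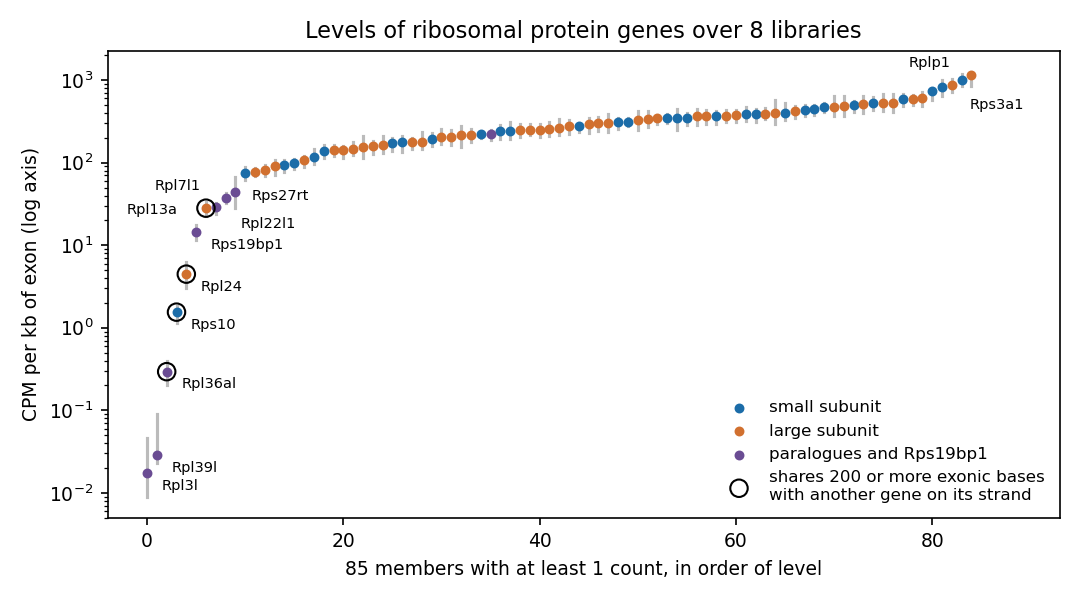
Level of each of the 85 members with at least 1 count, in order, as CPM per kb of exon on a log axis; points are means over 8 libraries, grey bars run from the lowest to the highest library above 0. Most canonical genes of both subunits lie near their median of 299, Rplp1 and Rps3a1 lie highest, and the circled genes, which share exons with a second gene model, are among the lowest.

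Counts of these genes are also touched by their many copies. Of the 86 members 62 had at least 1 other annotated gene that matched their transcript at 95% identity over 80% of the copy, with a median of 3 copies and a maximum of 61 for Rpl21. The 456 distinct copy genes, 400 of them pseudogenes, together held 8722 CPM, which is 19.9% of the 43725 CPM of the members. The pseudogene Rpl15-ps3, identical to Rpl15 over its whole length, was listed at 363 CPM beside 737 CPM for Rpl15, a large subunit protein. The pseudogene Rps6-ps4, at 99.8% identity, was listed at 347 CPM beside 835 CPM for Rps6. Rps27rt, a retrogene paralogue of Rps27, was listed at 16.5 CPM beside 361 CPM for Rps27, which matches it at 100% identity over 98.8% of its length. Among the low members, copies of Rps10 held 66.3 CPM beside 3.57 for Rps10, and those of Rpl24 held 24.2 beside 4.58. The copy of Rpl36al held 49.2 CPM beside 0.397, while those of Rpl13a held 29.2 beside 59.3. At 99% identity over 50% of the copy, 50 members had a copy. Among them was Rpl10, with 0 copies at the first setting, whose copies here held 584 CPM beside 757. Levels of members with copies at either setting are therefore uncertain. The counts of the copies at 95% identity were also added to the member each matched best. Then 76 in place of 75 of the 83 tested members had a log2 fold change above 0, and the median was again 0.10.

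The summed level of the members overlapped between the groups. The members took 4.28%, 3.74%, 4.31% and 4.56% of all counts in HG libraries 1 to 4, and 4.95%, 4.29%, 4.73% and 4.13% in LG libraries 1 to 4. The groups overlapped, with means of 4.22% ± 0.347 in HG and 4.52% ± 0.380 in LG (SD, n = 4), and the mean difference of 0.303 percentage points was below the SD of 0.501 between pairs. Within pairs LG was higher by 0.667, 0.555 and 0.423 percentage points in pairs 1 to 3 and lower, at -0.434, in pair 4. In bulk RNA a change in the number of cells of a kind and a change in RNA per cell cannot be told apart.

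**Figure D2:**
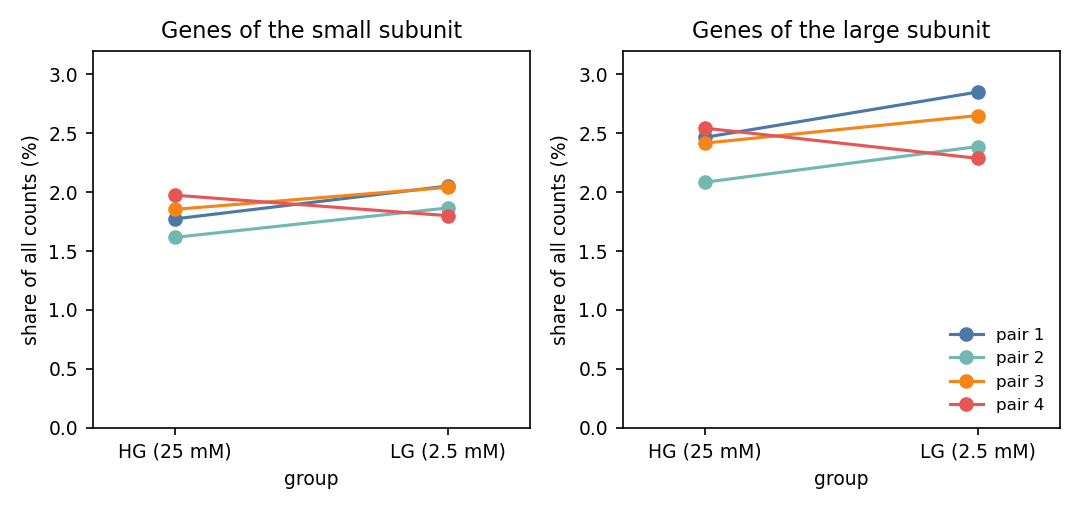
Share of all counts, in percent, taken by the genes of the small subunit (left) and of the large subunit (right) in each library, with a line joining the HG and LG library of the same number. Lines of pairs 1 to 3 go up from HG to LG and the line of pair 4 goes down, in both subunits.

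Both subunits showed this pattern. The share of the small subunit was 1.804% ± 0.150 in HG and 1.94% ± 0.126 in LG, and that of the large subunit 2.38% ± 0.202 and 2.54% ± 0.255. Their ratio was 0.719, 0.776, 0.767 and 0.776 in HG libraries 1 to 4 and 0.720, 0.782, 0.770 and 0.787 in LG libraries 1 to 4. Within pairs it was higher in LG each time, by 0.000809, 0.00599, 0.00246 and 0.0110, a mean of 0.00507 with SD 0.00452, which was not tested. The libraries numbered 1 had the lowest ratio in both groups, below the others by more than HG and LG differed in any pair.

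No single member passed the test of LG against HG. Without a block, the smallest Benjamini-Hochberg adjusted p of a member in edgeR's quasi-likelihood test was 0.9999, and the smallest unadjusted p was 0.0836. No member had an unadjusted p under 0.05, against 745 of the 18905 genes tested (3.94%), and over all genes 0% passed the adjusted threshold of 0.05. The fit blocked on replicate number called 79 genes (0.418%) and again no member, the smallest adjusted p of a member being 0.307 for Rps28 in edgeR. In the blocked fit 2 members, Rps28 and Rplp2, had an unadjusted p under 0.05 against 2542 of all genes (13.4%). With offsets for GC content and length added to the block, 152 genes (0.804%) and no member passed. DESeq2 called 4 genes and limma-voom 0 without a block, none of them a member. No member's HG and LG libraries stood apart without overlap, which in all genes happened for 1.07% with LG higher and 1.82% with LG lower.

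The small differences were mostly of 1 sign. A log2 fold change above 0, meaning a higher mean in LG, was found for 75 of the 83 tested members and for 51.4% of all genes tested. It was found for 72 of the 77 canonical members, 30 of 31 in the small and 42 of 46 in the large subunit. The median log2 fold change was 0.10 in the canonical members, 0.10 in each subunit and 0.01 over all genes. Single members ran from -0.09 to 0.18, with a median SE of 0.12, so without a block the typical difference was below its own error. With the block the canonical members' median was again 0.10. Rpl7a, the gene at that median, had an SE of 0.09 with the block and 0.12 without, and Rpl10 had 0.08 and 0.11. The count above 0 was 76 of 83 with the block (50.4% of all genes), and also 76 with block and offsets (55.9% of all genes). The members share their libraries, so their signs are not independent of each other.

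That difference came from 3 of the 4 pairs. The median difference in log2 CPM of the canonical members between LG and HG was 0.23 in pair 1, 0.20 in pair 2, 0.16 in pair 3 and -0.21 in pair 4. LG was higher for 73, 75 and 75 of the 77 in pairs 1 to 3 and for 2 in pair 4, where all genes gave 50.0%, 51.5%, 50.7% and 48.2%. Of the 77, 69 were higher in pairs 1 to 3 and lower in pair 4, a pattern of 13.1% of all genes. Only Rplp2 was higher in all 4 pairs, against 10.8% of all genes, and no canonical member was lower in all 4, against 11.0%. Pair 4 gave the lowest difference of the 4 pairs for 74 of the 77.

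**Figure D3:**
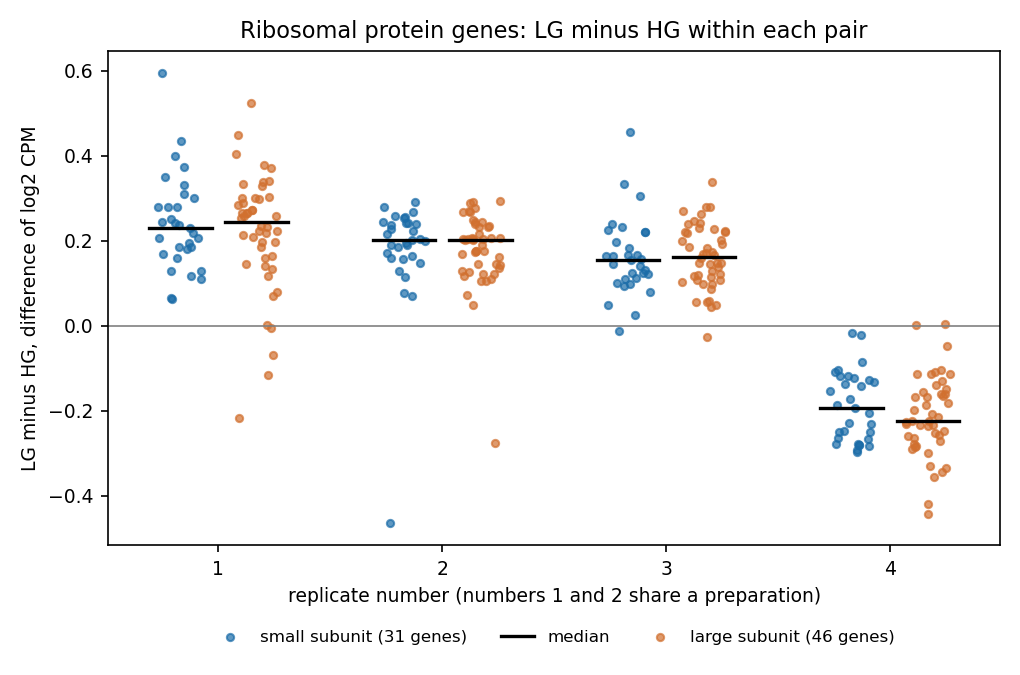
LG minus HG difference of log2 CPM for each canonical ribosomal protein gene in each pair of same-numbered libraries, small subunit in blue and large subunit in orange, with black bars at the medians. Nearly all points lie above 0 in pairs 1 to 3 and below 0 in pair 4, for both subunits alike.

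Both groups contributed to this spread. Among HG libraries, number 2 was the lowest for 68 of the 77 canonical members, and among LG libraries number 1 or 3 was the highest for all 77. Even so, the median spread of the members was not wider than that of all genes tested. The median SD of log2 CPM was 0.18 in HG and 0.19 in LG for the canonical members, and 0.21 in both groups for all genes tested. These sets were not matched for level, and all genes tested include weakly counted ones. The libraries also differed in GC content and length. Spearman's rho across genes between a gene's GC content and its deviation from the mean over libraries was -0.393, -0.197, -0.024 and 0.254 in HG libraries 1 to 4 and 0.110, -0.058, 0.275 and 0.119 in LG libraries 1 to 4. For transcript length it was -0.084, 0.243, -0.036 and -0.057 in HG and -0.204, 0.248, -0.262 and 0.080 in LG. Short genes were thus relatively highest in LG libraries 1 and 3, where the members were highest, and lowest in the libraries numbered 2. With a smooth trend on GC content and length taken out of each pair, the members' medians were 0.27, 0.25, 0.09 and -0.18, with 75, 75, 68 and 6 of 77 higher in LG. Members are short, and the 4303 other tested genes with a longest transcript of at most 1500 bases had medians of -0.06, -0.04, 0.11 and -0.08. The 3423 other tested genes above 5000 bases had -0.11, -0.01, -0.07 and 0.01, with signs opposite to those of the members in each pair. The part of length and GC content in the members' difference was tested only by removing the trend.

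Markers of the labelled cell type were high in every library. Their sum, and the summed markers of 3 other cell types, differed between preparations. Summed over 5 progenitor markers (Pdgfra, Cspg4, Olig1, Olig2 and Sox10, all detected), levels ran from 4854 to 7586 CPM in HG and from 5611 to 7152 in LG. By preparation, this sum was 4854 to 5692 CPM in libraries numbered 1 and 2 and 7102 to 7586 in those numbered 3 and 4. The 6 astrocyte markers summed to 1361 to 1507 CPM in libraries numbered 1 and 2 and to 450 to 536 in those numbered 3 and 4. Those of mature oligodendrocytes summed to 151 to 191 CPM and 43.5 to 59.3 CPM in the same libraries, and those of mural cells and fibroblasts to 30.6 to 51.2 and 7.71 to 9.31 CPM. This last sum was mostly Notch3, at 7.19 to 45.6 CPM. Rgs5, at 0.08 to 0.31 CPM, and Col1a1, at 0.04 to 0.30 CPM, did not split the libraries in this way. Microglial markers summed to at most 2.45 CPM in any library, with Cx3cr1 at 0, and endothelial markers to at most 7.32 CPM, with Cldn5 at 0. Neuronal markers summed to 878 to 1060 CPM, nearly all of it Map2, with Stmn2 and Rbfox3 near 0. Within pairs, the median LG minus HG difference in log2 CPM of the 6 astrocyte markers was 0.17, 0.02, 0.29 and -0.17. These are the signs of the ribosomal protein genes' medians, but among the 6 only Gfap and Aldoc had them singly. Aldh1l1, Aqp4, Slc1a2 and Slc1a3 did not, and none of the other marker sets had them as medians. Medians of the progenitor markers were 0.25, 0.04, -0.05 and 0.01, and those of mature oligodendrocytes -0.09, -0.18, -0.11 and -0.20. The summed CPM of the 6 astrocyte markers differed by 128, -19.5, 24.7 and -77.6, so the sign in pair 2 depends on the measure. The part of cell composition in the ribosomal protein genes' difference was not tested.

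Leaving pair 4 out changed the count of calls. With the replicate block and pairs 1 to 3 only, edgeR called 148 of 18809 genes (0.787%), and 5 members were among them, all higher in LG. Rps14, of the small subunit, had a log2 fold change of 0.32 with SE 0.06 (edgeR, adjusted p = 0.0477). Rpl9, Rpl28, Rpl32 and Rpl39, all of the large subunit, had 0.28, 0.27, 0.26 and 0.28, with adjusted p from 0.0465 to 0.0493 in edgeR. These calls stand just inside the threshold, rest on 2 preparation codes and leave out the pair that went the other way. Leaving out number 4 without a block called none, and leaving out the preparation of numbers 1 and 2 gave a members' median of -0.01, with 35 of 83 above 0.

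Rpsa, the laminin receptor protein of the small subunit, had the largest log2 fold change without a block. Its level was 1318, 1449, 1593 and 1672 CPM in HG libraries 1 to 4 and 1737, 1774, 1774 and 1542 CPM in LG libraries 1 to 4. LG library 4 was the only LG value inside the HG range. The log2 fold change was 0.18 with SE 0.09 and did not pass (edgeR, adjusted p = 0.9999, and 0.398 with the block).

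The 3 stalk proteins stood next to it. Rplp2 had 235, 265, 304 and 305 CPM in HG and 320, 300, 330 and 306 CPM in LG, a log2 fold change of 0.18 with SE 0.09. In pair 4 its 2 values were almost equal. Rplp0 had 1178, 1233, 1516 and 1594 CPM in HG and 1559, 1510, 1693 and 1446 in LG, a log2 fold change of 0.17 with SE 0.11. Rplp1 had 429, 506, 627 and 606 CPM in HG and 617, 583, 616 and 608 in LG, a log2 fold change of 0.16 with SE 0.11. For all 3 the spread lay in HG, where libraries 1 and 2 were low and 3 and 4 reached the level of LG. SDs of Rplp1 were 92.2 CPM in HG and 15.9 in LG.

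Other small subunit genes near the top of the list were alike. Rps28, which sits near the mRNA exit, had 290, 276, 347 and 354 CPM in HG and 352, 325, 390 and 348 in LG, a log2 fold change of 0.16 with SE 0.10. Rps14 had 499, 470, 548 and 698 CPM in HG and 591, 562, 752 and 568 in LG, a log2 fold change of 0.16 with SE 0.14. Its HG library 4 was above 3 of the 4 LG libraries. Rps2 ran from 1049 to 1469 CPM in HG and from 1354 to 1462 in LG, with a log2 fold change of 0.16.

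Rpsa and the stalk genes apart, the members followed for a known role had log2 fold changes from 0.01 to 0.11, or below 0 for Rps19bp1. Rps6, the substrate of the S6 kinases, had 864, 687, 826 and 905 CPM in HG and 983, 752, 937 and 747 in LG, a log2 fold change of 0.06 with SE 0.12. Its HG and LG ranges overlap over most of their width. Rpl5 and Rpl11, which bind Mdm2 when assembly fails, had 0.03 with SE 0.12 and 0.09 with SE 0.15. Rps27a, fused to ubiquitin, had 0.04, and Rps19, mutated in Diamond-Blackfan anaemia, 0.07 with SE 0.11. Rpl38, known for its part in the translation of Hox mRNAs, had 0.11 with SE 0.11.

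The lowest log2 fold changes were those of weakly counted genes. In the large subunit 3 members with higher counts, Rpl23, Rpl23a and Rpl21, also lay below 0, at -0.04, -0.01 and -0.01. Their copies at 95% identity held 31.2, 535 and 81.0 CPM, beside 607, 274 and 551 for the members themselves. Rpl24 had 6.46, 3.75, 4.37 and 4.38 CPM in HG and 5.55, 3.09, 4.92 and 4.24 in LG, a log2 fold change of -0.09 with SE 0.22. Rpl36al had -0.07 with SE 0.31 from 184 counts in all, and Rps19bp1 -0.05 with SE 0.13. Rps10, at -0.003 over all libraries, had 0.59, -0.46, 0.02 and -0.13 in pairs 1 to 4, an SD of 0.44 between pairs.

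Paralogues were set beside their partners. Rpl22l1, the paralogue that is known to be repressed by Rpl22, had 57.2, 47.9, 61.5 and 54.7 CPM in HG and 65.4, 61.8, 57.6 and 57.3 in LG. Its log2 fold change was 0.13 with SE 0.09, and that of Rpl22 was 0.10 with SE 0.09, so both had the same sign. Rps27l, which is known as a p53 target, had 175, 154, 194 and 203 CPM in HG and 187, 165, 201 and 169 in LG, a log2 fold change of -0.01 with SE 0.10, beside 0.12 with SE 0.16 for Rps27. Rps27l was higher in LG in pairs 1 to 3 by 0.05 to 0.10 and lower in pair 4, at -0.27. Rpl7l1, of nucleolar pre-ribosomes, had 0.01 with SE 0.10 beside 0.11 with SE 0.12 for Rpl7. None of these pairs of values was tested against each other.

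Members with and without a TOP stretch found at the annotated start had like values. The 27 canonical members with a stretch had a median log2 fold change of 0.10 and the 30 without one 0.10, and 26 and 28 of them were above 0. The medians in pair 4 were -0.18 and -0.22. No difference between them was tested. A start that lies some bases off hides the stretch, so the 30 may carry one too. These values therefore cannot show whether the stretch matters.

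Other genes of translation were compared with the members by counts and medians, and none of the genes in these lists passed in edgeR with or without the block. Of 26 genes of translation factors and related proteins whose mRNAs are known as TOP mRNAs, 20 had a log2 fold change above 0, with a median of 0.07 and pair medians of 0.21, 0.14, 0.08 and -0.10. Eef2, the elongation factor for translocation, had 2743, 3056, 3893 and 4155 CPM in HG and 3739, 3708, 4438 and 3917 in LG, a log2 fold change of 0.19 with SE 0.14. Eef1a1, which brings aminoacyl-tRNA to the ribosome, had 0.05 with SE 0.11, Rack1, a scaffold on the small subunit, 0.17 with SE 0.11, and Tpt1 0.14 with SE 0.10. The other 6 were below 0, the lowest being the translation initiation factor gene Eif3a at -0.37. Eif3a was 1 of 3 genes of the 26 that were lower in all 4 pairs, against 11.0% of all genes. Of 77 tested mitochondrial ribosomal protein genes 65 were above 0, with a median of 0.06 and pair medians of 0.19, 0.05, 0.10 and -0.11.

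The noncoding TOP genes, which host snoRNAs and are degraded when translated, had the opposite sign. All 6 (Gas5, Snhg1, Snhg5, Snhg6, Snhg8 and Snhg12) had a log2 fold change below 0, with a median of -0.09 and pair medians of -0.27, -0.04, -0.20 and 0.09. Gas5 had 119, 112, 125 and 115 CPM in HG and 76.2, 109, 99.5 and 128 in LG, a log2 fold change of -0.19 with SE 0.13. LG library 4 was the highest of all 8 libraries and LG library 1 the lowest. With the trend on GC content and length removed the pair medians were -0.05, 0.02, -0.05 and 0.04, and 2 of the 6 were above 0 in the edgeR fit with offsets.

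Of 16 genes of mTORC1 and its outputs 10 were above 0, with a median of 0.04. Larp1, which binds TOP mRNAs when mTORC1 is inactive, had 137, 135, 117 and 134 CPM in HG and 124, 121, 108 and 118 in LG, lower in all 4 pairs, with a log2 fold change of -0.15 with SE 0.08. Rps6kb1, the S6 kinase gene, had 86.9, 68.5, 65.6 and 60.9 CPM in HG and 58.1, 60.9, 52.3 and 59.3 in LG, also lower in all 4 pairs, with -0.29 and SE 0.11. Neither passed (edgeR, adjusted p = 0.9999 for both, and 0.249 and 0.184 with the block), and 11.0% of all genes were lower in all 4 pairs. Another 3 of the 16 were higher in all 4 pairs, against 10.8% of all genes, namely the second S6 kinase gene Rps6kb2 at 0.13, Eif4ebp2 at 0.12 and Tsc2 at 0.11. Mtor had 0.01 with SE 0.07 and Eif4ebp1, a translation repressor that mTORC1 phosphorylates, 0.11 with SE 0.11. Of 5 chaperones dedicated to single ribosomal proteins, 4 could be tested and 2 were above 0, and Pdcd2, the chaperone of Rps2, was listed at 0.

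**Figure D4:**
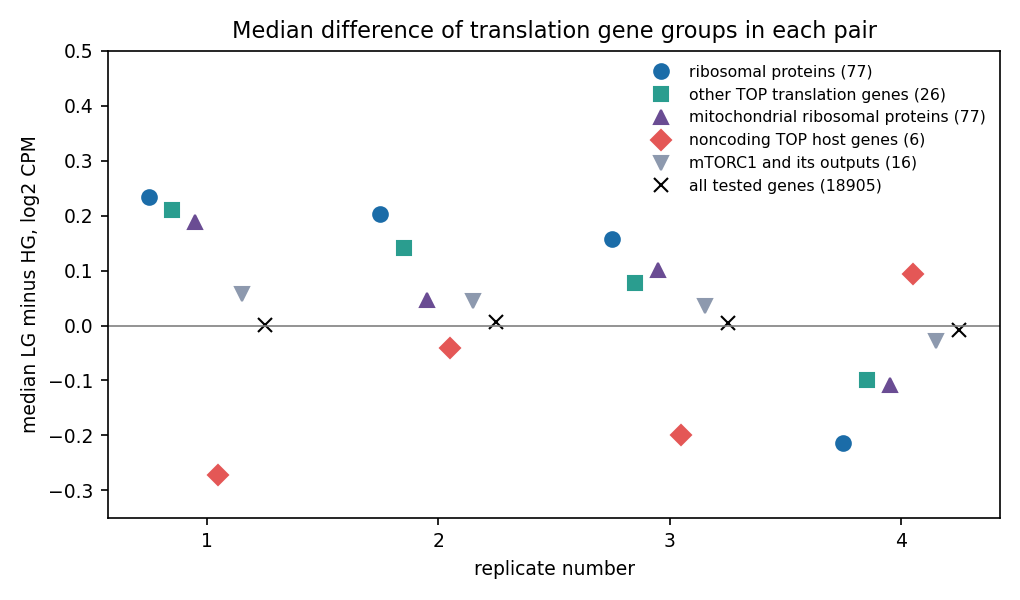
Median LG minus HG difference of log2 CPM in each pair of same-numbered libraries, for canonical ribosomal protein genes, the other lists of translation genes and all tested genes, with the number of genes in brackets. The ribosomal, other TOP and mitochondrial ribosomal genes lie above 0 in pairs 1 to 3 and below 0 in pair 4, the noncoding TOP hosts the reverse, and all tested genes lie near 0.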

How the data were processed

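The authors deposited 1 table of raw counts per Ensembl gene, whole numbers with no normalization. Per the submitters' processing notes, the tools were STAR, featureCounts, CASAVA 1.8.2 and DESeq2 and the build was mm10, each listed without its role. Annotation release, strand setting and the handling of reads with several matches were not given in the sources used here, so reads of an overlapping antisense gene may be included in a member's count. Total counts were 50864130 to 61915909 in HG libraries and 53869166 to 65733928 in LG libraries, above the 15 to 30 M reads stated in the labels, a gap whose origin was not tested. Counting error is small beside the spread between libraries for all but the weakest members. One ID with no symbol took 3.99% to 7.11% of counts.

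Symbols came from the GENCODE M21 annotation of GRCm38 for 52125 of the IDs. The 18905 genes kept by filterByExpr were tested with edgeR 4.0.16 in R 4.3.3 (TMM, robust quasi-likelihood, two-sided, Benjamini-Hochberg, threshold 0.05), and log2 CPM used a prior count of 2. SE is the absolute log2 fold change over the root of the test's F value. Same-numbered HG and LG libraries deviated together (r = 0.571, 0.625, 0.448 and 0.508 across genes, and at most 0.419 between other numbers), and the labels give each number 1 preparation code, so the numbers pair the libraries. No 2 replicates agreed within sampling noise (chi-square per degree of freedom of at least 19.0). Copies were found with blastn 2.17.0. Alternatives were DESeq2 1.42.0, limma 3.58.1, block fits, trend offsets fitted with mgcv 1.9.3, other filters and scalings, and leaving libraries out. Adding the copies' counts, leaving out number 4 without a block and principal transcript lengths were chosen after seeing the data. The test was also run on simulated counts with set fold changes. Those counts held no effect of replicate number or preparation, so that run does not cover such effects.

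Members and lists were chosen with earlier results of these data known. Named genes were members past a threshold, the 8 largest and 3 lowest log2 fold changes, the 6 highest and 6 lowest levels, paralogue pairs, members with a set role, untested members and a few genes of the other lists. Rpl9, Rpl28, Rpl32, Rpl15, Rpl21, Rpl23, Rpl23a, Eif3a, Eif4ebp2, Tsc2 and Rps6kb2 were added after their values were seen. Items withheld for evaluation are not reported here.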

Additional observations from a re-analysis of the deposited data

Results flagged for a closer look

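A library was far from the other 3 of its group, by its gap as a share of the range, in 6 of 106 groups of 4 libraries, where chance gives about 5.3 (1 in 20). Rpl39 stood at 7.798 log2 CPM in HG library 2, with the next library at 8.274. Rps4x, a small subunit protein encoded on the X chromosome, stood at 9.649 in the same library, with the next at 9.911. Rpsa stood at 10.59 in LG library 4, below the next at 10.76. Rack1 stood at 10.05 in LG library 3, above the next at 9.889, and Larp1 at 6.873 in HG library 3, below the next at 7.066. The ratio of small to large subunit counts was 0.7192 in HG library 1, below the next at 0.7675. LG library 1, of the same number, had a like ratio of 0.720.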

How the results depend on the processing

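Over 29 alternatives, 1225 of 1333 values of 46 named genes kept their sign and their side of the threshold, 106 changed sign without passing, and 2 passed, Rps14 and Rpl39 without number 4 and with the replicate block. Without the preparation of numbers 1 and 2 the members' median was -0.00832, that of the small subunit -0.00592, that of the large subunit -0.00443, the difference in share of counts -0.00577 percentage points and the number of members above 0 was 35. The number of genes called over the whole table, 0 without a block, was 79 with the replicate block, 1 with a preparation block, 17 with counts summed per preparation, 4 with DESeq2, 474 with DESeq2 and the replicate block, 67 with limma-voom and the replicate block and 152 with GC and length offsets and the replicate block. Members called were 0 in each of these, and with all 4 pairs the replicate block changed no call of a named gene. The difference between the subunits' medians was 0.0235 with the offsets and 0.0276 with offsets and block.

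Leaving out 1 library at a time, the members' median ran from 0.0408 (without HG library 2) to 0.155 (without LG library 4), members above 0 from 56 to 81, the small subunit's median from 0.0424 to 0.148, the large subunit's from 0.0316 to 0.169, their difference from -0.0262 to 0.0249 and the share's difference from 0.141 to 0.435 percentage points, with 0 genes and 0 members called. With 1 pair left out and the replicate block, the members' median ran from 0.0536 to 0.201. The large subunit's ran from 0.0544 to 0.213, the small subunit's from 0.0535 to 0.201, their difference from -0.0121 to 0.017, members above 0 from 66 to 81, members called from 0 to 5, genes called from 0 to 148 (6 without pair 1, 0 without pair 2, 39 without pair 3, 148 without pair 4) and the share's difference from 0.181 to 0.548, the highest value being that without pair 4 for each of these but the difference between the subunits. The cause of these changes was not tested. The 4 pairs stand for 3 preparation codes, and without a block a canonical member's median SE of 0.116 is above the median difference.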
